A study of Mus musculus with 19 samples.

Results

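The liver mRNA levels of 10 genes of xenobiotic sensing and disposal were described in Gramd1c-/- and Gramd1c+/+ mice on high and low dietary cholesterol. They are the receptors and stress sensor Nr1i2, Nr1i3, Ahr and Nfe2l2 and the targets Nqo1, Por, Alas1, Abcb1a, Abcc3 and Ephx1, none of them a cytochrome P450. They were chosen by symbol from the 49315 genes in the count tables, and all 10 were found and passed the filter on low counts, as did 15016 genes in all. Liver RNA came from 19 female mice on a C57BL/6N background, with 1 library per mouse. Of these, 5 Gramd1c-/- and 5 Gramd1c+/+ mice ate a diet with 0.2% cholesterol by weight (high), and 4 Gramd1c-/- and 5 Gramd1c+/+ mice ate 0.02% (low), all for 4 weeks from 8 weeks of age, and most mice were fasted for 4 h before necropsy. The mutation is a knockout-first allele present in every tissue, so the liver was not targeted alone, and Gramd1c+/+ mice were littermates from crosses of heterozygotes. The labels number the mice of each group as separate samples.

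Levels are given as TPM, a measure of transcript abundance corrected for gene length and scaled to the same total in each mouse, computed from the deposited counts and gene lengths. Differences are log2 fold changes fitted with the quasi-likelihood test of edgeR, and calls rest on p-values adjusted by Benjamini-Hochberg over all 15016 genes tested, with a threshold of 0.05. Total counts were 27149972 to 34669648 per mouse. Gramd1c itself was at 1.07 to 3.61 TPM in Gramd1c-/- and 9.56 to 11.7 TPM in Gramd1c+/+ mice on high cholesterol. On low cholesterol it was at 1.25 to 2.04 TPM in Gramd1c-/- and 10.4 to 16.0 TPM in Gramd1c+/+ mice. The highest Gramd1c-/- mouse, replicate 5 on high cholesterol, had 3.61 TPM, and the others of its group had 1.07 to 1.67 TPM. The tissue label reads gonadal adipose and the cell type label liver. The 6 hepatocyte markers summed to 79276 to 128337 TPM, and in 18 mice the 5 adipocyte markers to 2.32 to 8.31 TPM. The hepatocyte sum was 79276 to 103400 TPM in Gramd1c-/- and 86020 to 110110 TPM in Gramd1c+/+ mice on high cholesterol, and 109660 to 126240 TPM in Gramd1c-/- and 96174 to 128340 TPM in Gramd1c+/+ mice on low cholesterol. In bulk tissue, fewer cells of a type and less RNA per cell cannot be told apart. Libraries that stood apart were replicate 2 of Gramd1c+/+ mice on low cholesterol (adrenal markers 570.3 TPM, against 0.658 to 3.74 TPM in the other mice, and adipocyte markers 132 TPM) and, among Gramd1c-/- mice on high cholesterol, replicate 3 (the acinar gene Ctrb1 at 58.9 TPM, which made up nearly all of a pancreatic acinar marker sum of 59.0 TPM, against sums of 0.435 to 2.19 TPM), replicate 4 (Kupffer cell markers 755 TPM, against 143 to 388 TPM) and replicate 5 (far from the others on the principal component that held 24.4% of the variance).

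Cells meet foreign compounds through ligand-activated transcription factors. PXR (Nr1i2) and CAR (Nr1i3) bind DNA with the retinoid X receptor and switch on enzymes and transporters that oxidise, conjugate and export drugs, bile acids and steroids, and both are largely receptors of liver and gut. AHR senses planar aromatic compounds and pairs with ARNT, while NRF2 (Nfe2l2), held down by KEAP1, responds to electrophiles and pairs with small MAF proteins. Oxidation by microsomal cytochrome P450 enzymes needs haem, whose synthesis starts with ALAS1, and electrons from NADPH passed on by POR. EPHX1 hydrolyses the epoxides that result, NQO1 reduces quinones, and ABCB1A and ABCC3 export parent compounds and conjugates.

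The start sites of the genes on which the results turn are given first, as RefSeq has them on GRCm38.p6. Each window runs from 250 bases before to 50 bases after the start and is read 5′ to 3′ on the gene's own strand. Nr1i3 is shown for its diet difference, Nfe2l2 for its narrow range, and Alas1 with the clock gene Per1 because they varied together. Capitals mark CACGTG (an E-box, the site of clock and MYC-type factors) in Nr1i3 and Per1, GCGTG (the core that AHR with ARNT binds) in Alas1 and TGACNNNGC (the core of an antioxidant response element) in Nfe2l2, searched on both strands.
Nr1i3, chr1:171213720-171214019, plus strand: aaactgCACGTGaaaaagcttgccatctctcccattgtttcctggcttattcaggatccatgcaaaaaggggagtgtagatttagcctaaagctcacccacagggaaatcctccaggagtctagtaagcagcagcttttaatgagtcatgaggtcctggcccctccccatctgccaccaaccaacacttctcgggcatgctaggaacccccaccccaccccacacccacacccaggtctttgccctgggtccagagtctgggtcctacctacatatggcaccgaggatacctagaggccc
Nfe2l2, chr2:75704614-75704913, minus strand: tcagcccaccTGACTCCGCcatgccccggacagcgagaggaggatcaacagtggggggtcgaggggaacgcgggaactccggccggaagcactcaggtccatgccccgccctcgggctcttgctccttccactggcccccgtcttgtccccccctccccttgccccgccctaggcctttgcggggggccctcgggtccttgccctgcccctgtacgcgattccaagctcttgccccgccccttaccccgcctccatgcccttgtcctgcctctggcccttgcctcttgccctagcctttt
Alas1, chr9:106247681-106247980, minus strand: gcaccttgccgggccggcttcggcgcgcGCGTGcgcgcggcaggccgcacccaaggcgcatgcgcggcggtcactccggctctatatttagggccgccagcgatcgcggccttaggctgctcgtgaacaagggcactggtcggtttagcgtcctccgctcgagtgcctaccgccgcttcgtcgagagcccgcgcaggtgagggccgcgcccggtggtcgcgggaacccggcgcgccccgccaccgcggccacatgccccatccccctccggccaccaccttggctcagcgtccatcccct
Per1, chr11:69098699-69098998, plus strand: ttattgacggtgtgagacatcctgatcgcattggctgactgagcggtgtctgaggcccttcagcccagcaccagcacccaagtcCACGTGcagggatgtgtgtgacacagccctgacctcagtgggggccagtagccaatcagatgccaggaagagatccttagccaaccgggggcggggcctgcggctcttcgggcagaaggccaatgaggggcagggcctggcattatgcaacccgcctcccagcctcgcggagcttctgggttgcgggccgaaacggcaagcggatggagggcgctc
The start site of the Nr1i3 window is the gene's first base in the files, and that of the Alas1 window lies inside the gene. That of the Nfe2l2 window lies just outside the gene's span there. These letters are common: of 32851 windows of the same length, 7.15% held CACGTG, 12.4% TGACNNNGC and 32.4% GCGTG. Windows were found for 8 of the 10 genes. CACGTG was in the Nr1i3 window alone among them and in neither of the 2 Alas1 windows, and TGACNNNGC was in that of Nfe2l2 and in that of Abcb1a, whose RefSeq start lies outside the gene's span in the files, but not in that of Nqo1. GCGTG was in both Alas1 windows and, 3 times, in the Por window, so it was not particular to Alas1. The Per1 window also holds TGACNNNGC 2 times, not capitalised, and the other Per1 window holds no CACGTG but 1 GCGTG. A match is a description of these letters and not evidence of binding.

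None of the 10 genes was called in any of the comparisons. Between genotypes 0 of 10 were called on high cholesterol, on low cholesterol or over the mean of both diets, and in each of these 0.00666% of all genes tested were called, a single gene, Gramd1c. Between diets 0 of 10 were called in Gramd1c-/- mice, where 0.326% of all genes were, in Gramd1c+/+ mice, where 0.44% were, and over the mean of both genotypes, where 1.3% were. The genotype by diet interaction was called for 0 of 10 genes and for 0% of all genes. At an unadjusted p below 0.05, 8 of the 70 estimates passed: Ephx1 between genotypes on high cholesterol, none on low cholesterol or over both diets, Nr1i3 and Ahr for diet in Gramd1c-/- mice, Ephx1 in Gramd1c+/+ mice, Nr1i3, Ahr and Ephx1 over both genotypes, and Ephx1 for the interaction. Of all 15016 genes, 364 passed that limit between genotypes on high cholesterol, 400 on low cholesterol and 448 over both diets, 1712 between diets in Gramd1c-/- mice, 1191 in Gramd1c+/+ mice and 2748 over both genotypes, and 250 for the interaction. DESeq2 called 1 of them, Nr1i3, over the mean of both genotypes. The TPM ranges of the groups overlapped for all 10 genes in every pair of groups compared. Groups did not overlap for 0.246% of all genes between genotypes on high cholesterol, 1.73% between genotypes on low cholesterol, 3.46% between diets in Gramd1c-/- mice and 1.72% between diets in Gramd1c+/+ mice.

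**Figure D1:**
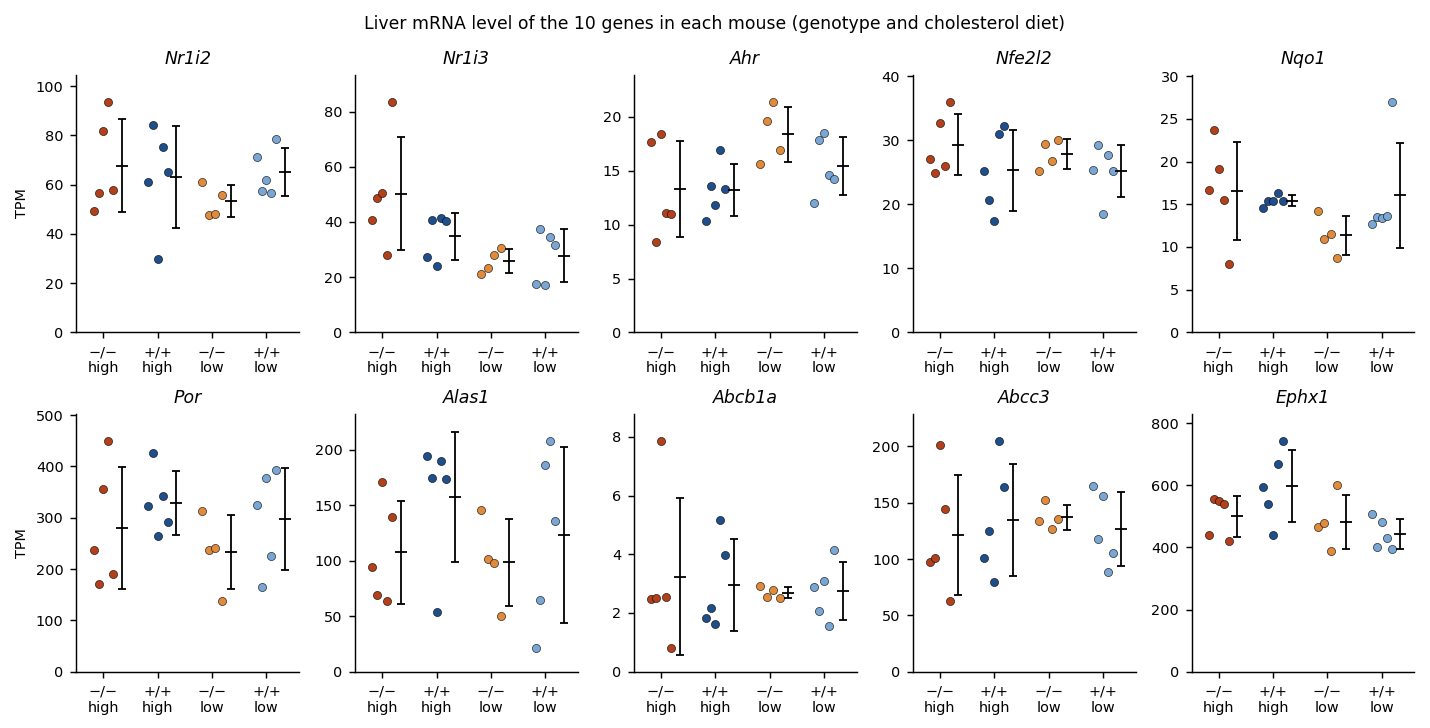
TPM of each gene (y axis, from 0) in each mouse (points) by genotype and cholesterol diet (x axis), with the mean and SD of each group beside the points. The groups overlap in every panel, Alas1 runs over 21.5 to 207 TPM, and 1 mouse of 5 stands above the rest for Abcb1a in Gramd1c-/- mice on high cholesterol (7.84 TPM).

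**Figure D2:**
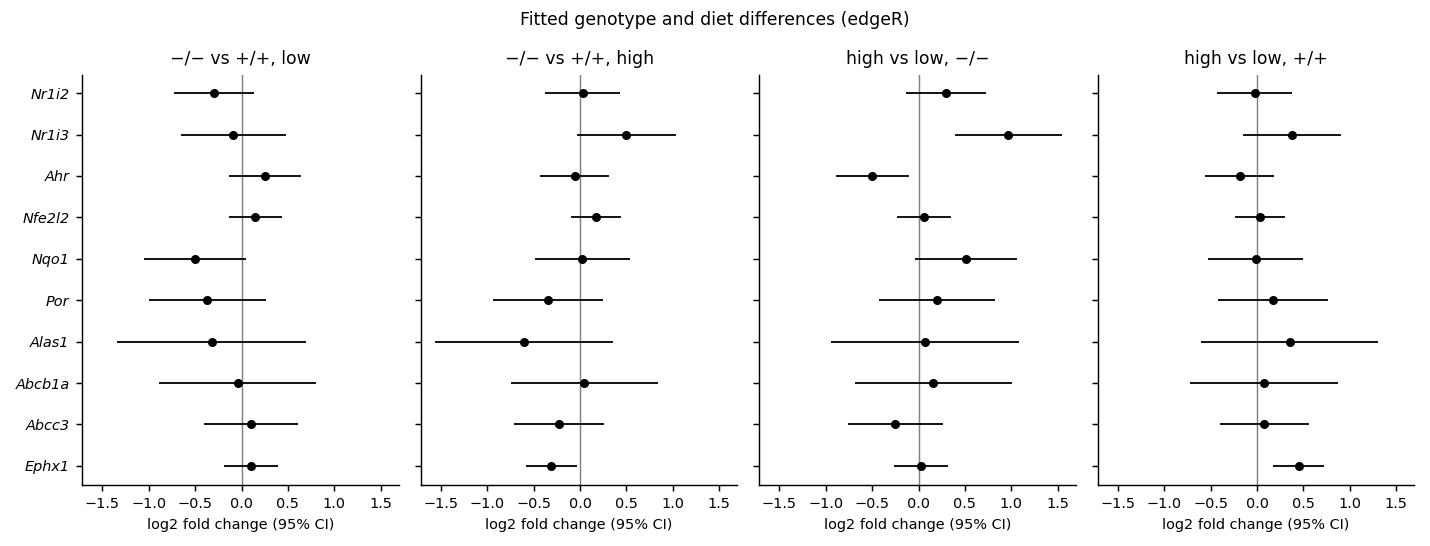
Fitted log2 fold change of each gene (x axis) with its 95% confidence interval in 4 comparisons, Gramd1c-/- against Gramd1c+/+ on each diet and high against low cholesterol in each genotype. Intervals leave 0 out for Ephx1 between genotypes on high cholesterol and between diets in Gramd1c+/+ mice, and for Nr1i3 and Ahr between diets in Gramd1c-/- mice, before adjustment over all genes.

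The levels of the 10 genes spanned more than 2 orders of magnitude on the length-corrected scale. Ephx1 was the most abundant, at 507 ± 96.5 TPM over all mice (SD, n = 19), followed by Por at 288 ± 90.7 TPM, and each exceeded the next gene within every mouse. Abcc3 at 129.6 ± 38.6 TPM and Alas1 at 123 ± 58.4 TPM could not be ordered, since Abcc3 was the higher in 11 of 19 mice. Nr1i2 followed at 62.8 ± 15.2 TPM, below Alas1 in 16 mice, and then Nr1i3 at 35.1 ± 15.2 TPM, below Nr1i2 in 18 mice. Nfe2l2 at 26.9 ± 4.70 TPM was below Nr1i3 in 15 mice and above Nqo1 in 18. Nqo1 at 15.0 ± 4.54 TPM and Ahr at 14.9 ± 3.58 TPM had no order, with Nqo1 the higher in 9 of 19 mice, and Abcb1a at 2.92 ± 1.55 TPM was the lowest in every mouse. At the lowest level, Abcb1a still had 62 to 580 counts per mouse.

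Among the receptors, Nr1i3 had the largest diet difference of the 10 genes. Nr1i3 encodes CAR, which is held in the cytosol of hepatocytes until an activator releases it, and lies at chr1:171213970-171220701 on the plus strand (ENSMUSG00000005677). It was at 40.8, 48.7, 50.4, 27.8 and 83.4 TPM in Gramd1c-/- mice on high cholesterol, against 21.2, 23.4, 27.9 and 30.7 TPM in Gramd1c-/- mice on low cholesterol. In Gramd1c+/+ mice it was at 27.3, 40.9, 24.0, 41.5 and 40.3 TPM on high cholesterol, against 17.7, 37.5, 17.3, 34.6 and 31.6 TPM on low cholesterol. Among Gramd1c-/- mice 4 of 5 on high cholesterol lay above all 4 on low cholesterol, and among Gramd1c+/+ mice the diets overlapped widely. The fitted log2 difference between high and low cholesterol was 0.67 (SE 0.19, 95% CI 0.28 to 1.06, adjusted p = 0.0825 with edgeR) over the mean of both genotypes, a 1.59-fold difference that was not called. It was 0.97 (SE 0.28, adjusted p = 0.257 with edgeR) in Gramd1c-/- mice and 0.38 (SE 0.25, adjusted p = 0.740 with edgeR) in Gramd1c+/+ mice, and the difference between those, 0.59 (SE 0.37, 95% CI -0.19 to 1.36), did not pass (adjusted p = 0.9999 with edgeR) and was 0.28 without replicate 5 of Gramd1c-/- mice on high cholesterol.

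The hepatocyte marker sum, given above, was lower on high than on low cholesterol in both genotypes by its median (96818 against 114830 TPM in Gramd1c-/- and 89552 against 110880 TPM in Gramd1c+/+ mice), and its part in this and the other diet differences was not tested. A sum of 5 intestine markers, nearly all of it Fabp2, a fatty acid binding protein that liver also makes, had medians of 250.7 against 129 TPM in Gramd1c-/- and 188 against 105 TPM in Gramd1c+/+ mice on high against low cholesterol. It was highest, at 364 TPM, in the mouse with the highest Nr1i3, and its part was likewise not tested. The call for Nr1i3 over both genotypes depended on the tool and on single mice. DESeq2 gave 0.67 with an adjusted p of 0.0187, the lowest over the alternatives, where the highest was 0.172, and edgeR without replicate 4 of Gramd1c-/- mice on high cholesterol gave 0.76 with an adjusted p of 0.0251. Without replicate 5 of the same group, the mouse with 83.4 TPM, the difference was 0.52 over both genotypes and 0.66 in Gramd1c-/- mice. The genotype difference in Nr1i3 on high cholesterol, 0.50 (SE 0.25, adjusted p = 0.99996 with edgeR), was 0.19 without that mouse. Across all 19 mice log2 Nr1i3 followed the leading principal component of the libraries (r = 0.82), on which replicate 5 lies farthest out, and the part of that axis in the diet difference was not tested. The span of Nr1i3, introns included, also overlaps by 4691 bases that of Tomm40l, a gene for a mitochondrial import protein on the opposite strand. The overlap of their counted exons was not computed, and the library kit does not mark strand. Tomm40l had at most 288 counts per mouse, against 1027 to 5095 for Nr1i3. It differed between high and low cholesterol by 0.49 (SE 0.14, adjusted p = 0.0930 with edgeR) over both genotypes. Its deviations from the group means followed those of Nr1i3 with r = 0.54 over 19 mice (0.60 without the 2 mice with the most extreme Tomm40l). How reads in the shared span were assigned is not given, and their part in these values was not tested.

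Nr1i2, the gene of PXR, had no estimate as large as the diet difference in Nr1i3. It lies at chr16:38248323-38294824 on the minus strand (ENSMUSG00000022809), on the same chromosome as Gramd1c. Its level was 49.2 to 93.5 TPM in Gramd1c-/- and 29.9 to 84.3 TPM in Gramd1c+/+ mice on high cholesterol, and 47.7 to 61.3 TPM in Gramd1c-/- and 56.5 to 78.7 TPM in Gramd1c+/+ mice on low cholesterol. Its largest estimate was the interaction, 0.32 (SE 0.28, adjusted p = 0.9999 with edgeR), which was 0.19 without replicate 3 and 0.53 without replicate 2 of Gramd1c+/+ mice on high cholesterol. The intervals of the genotype difference ran from -0.38 to 0.43 on high and from -0.73 to 0.14 on low cholesterol.

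Ahr was lower in Gramd1c-/- mice on high cholesterol than on low before adjustment. The gene, for the receptor of dioxins and dietary indoles, lies at chr12:35497974-35535038 on the minus strand (ENSMUSG00000019256). It was at 17.7, 8.41, 18.4, 11.1 and 10.996 TPM in Gramd1c-/- mice on high cholesterol, against 15.7, 19.6, 21.4 and 16.9 TPM on low cholesterol. Of the high cholesterol mice, 3 of 5 lay below every low cholesterol mouse and 2 lay within their range. The log2 difference was -0.50 (SE 0.19, unadjusted p = 0.0150, adjusted p = 0.360 with edgeR). In Gramd1c+/+ mice Ahr was at 10.4 to 16.9 TPM on high cholesterol and 12.0 to 18.5 TPM on low cholesterol, a difference of -0.19 (SE 0.18) that was -0.08 without replicate 3 on low cholesterol. Over both genotypes the difference was -0.34 (SE 0.13, adjusted p = 0.178 with edgeR), with -0.43 to -0.29 over the mice left out in turn.

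Nfe2l2, the gene of NRF2, had the narrowest range among the receptors and sensors. It lies at chr2:75675513-75704641 on the minus strand (ENSMUSG00000015839), and its start is among those printed above. Its level was 24.96 to 36.0 TPM in Gramd1c-/- and 17.4 to 32.2 TPM in Gramd1c+/+ mice on high cholesterol, and 25.2 to 30.1 TPM in Gramd1c-/- and 18.5 to 29.2 TPM in Gramd1c+/+ mice on low cholesterol. The genotype difference over both diets was 0.16 (SE 0.10, adjusted p = 0.999 with edgeR), and 0.10 without replicate 5 of Gramd1c-/- mice on high cholesterol, and the diet difference over both genotypes 0.04, with a 95% interval of -0.16 to 0.24. NRF2 is regulated mainly through the stability of the protein, which these data do not measure.

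Of the targets, Ephx1 had the smallest p in Gramd1c+/+ mice. The gene, for microsomal epoxide hydrolase, lies at chr1:180976210-181020904 on the minus strand (ENSMUSG00000038776). In Gramd1c-/- mice it was at 439, 556, 550.0, 539 and 419.8 TPM on high cholesterol, against 465, 478, 387 and 599.9 TPM on low cholesterol. In Gramd1c+/+ mice it was at 594, 542, 440.2, 669 and 742 TPM on high cholesterol, against 507, 402, 483, 431 and 395 TPM on low cholesterol. In Gramd1c-/- mice all 5 on high cholesterol lay within the range on low cholesterol, and in Gramd1c+/+ mice 4 of 5 on high cholesterol lay above all 5 on low cholesterol. The log2 difference between diets was 0.03 (95% CI -0.26 to 0.32) in Gramd1c-/- mice and 0.45 (SE 0.13, unadjusted p = 0.00293, adjusted p = 0.275 with edgeR) in Gramd1c+/+ mice. The interaction, -0.42 (SE 0.19, 95% CI -0.82 to -0.02), had an unadjusted p of 0.0417 and an adjusted p of 0.9999 with edgeR, and the genotype difference on high cholesterol was -0.31 (SE 0.13, adjusted p = 0.99996 with edgeR). No alternative called any of these: the adjusted p for diet in Gramd1c+/+ mice was 0.0927 to 0.585 over the alternatives. That difference was 0.37 without replicate 2 and 0.52 without replicate 1 of the low cholesterol group.

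Nqo1, which NRF2 and AHR both induce, differed most by single mice. It lies at chr8:107388225-107403206 on the minus strand (ENSMUSG00000003849). It was at 16.6, 23.7, 19.1, 15.5 and 8.001 TPM in Gramd1c-/- and 14.6, 15.4, 15.3, 16.4 and 15.4 TPM in Gramd1c+/+ mice on high cholesterol. On low cholesterol it was at 14.2, 10.9, 11.5 and 8.72 TPM in Gramd1c-/- and 12.7, 13.5, 13.4, 13.7 and 27.0 TPM in Gramd1c+/+ mice. Gramd1c+/+ mice on high cholesterol lay within 14.6 to 16.4 TPM, and 1 Gramd1c+/+ mouse on low cholesterol, replicate 5, stood above every other mouse of the study. The genotype difference on low cholesterol was -0.50 (SE 0.26, adjusted p = 0.999 with edgeR) and -0.22 without that mouse. The diet difference in Gramd1c-/- mice was 0.51 (SE 0.26, adjusted p = 0.457 with edgeR). It was 0.33 without replicate 2 and 0.67 without replicate 5 of Gramd1c-/- mice on high cholesterol. In replicate 5 of Gramd1c+/+ mice on low cholesterol, the adrenal, adipocyte, pancreatic and Kupffer cell marker sums were within the range of the other mice.

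Por and Alas1 serve the cytochrome P450 system, and both varied widely within groups. Por, the flavoprotein that hands electrons to microsomal P450 enzymes, lies at chr5:135670033-135735326 on the plus strand (ENSMUSG00000005514). It ran from 170.5 to 449 TPM in Gramd1c-/- and from 264 to 427 TPM in Gramd1c+/+ mice on high cholesterol, and from 138 to 314 TPM in Gramd1c-/- and from 164 to 394 TPM in Gramd1c+/+ mice on low cholesterol. The genotype difference over both diets was -0.36 (SE 0.21, 95% CI -0.79 to 0.08, adjusted p = 0.999 with edgeR). The estimate was -0.34 on high cholesterol, and -0.18 without replicate 2 of Gramd1c+/+ and -0.55 without replicate 4 of Gramd1c-/- mice. On low cholesterol it was -0.37, and -0.17 without replicate 4 and -0.57 without replicate 1 of Gramd1c-/- mice. Alas1, at chr9:106233455-106248654 on the minus strand (ENSMUSG00000032786), was at 94.4, 69.3, 171, 63.6 and 139 TPM in Gramd1c-/- and 195, 175, 54.1, 189.5 and 174 TPM in Gramd1c+/+ mice on high cholesterol. On low cholesterol it was at 146, 101, 98.3 and 49.7 TPM in Gramd1c-/- and 21.5, 64.4, 186, 207 and 136 TPM in Gramd1c+/+ mice. On high cholesterol 4 of 5 Gramd1c+/+ mice lay above every Gramd1c-/- mouse, and the fifth lay below them all. The genotype difference over both diets was -0.46 (SE 0.34, 95% CI -1.16 to 0.24, adjusted p = 0.999 with edgeR).

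The spread of Alas1 between mice of a group was larger than that of most genes. The SD of log2 CPM (counts scaled to library size) within groups was 0.90 for Alas1, above that of 96.1% of all genes tested and 99.3% of genes of like abundance, where the median over all genes was 0.31. The highest mouse had 9.65 times the TPM of the lowest, both in the Gramd1c+/+ group on low cholesterol, at 1475 to 15049 counts. Abcb1a (SD 0.68) and Por (SD 0.51) lay above 95.6% and 94.9% of genes of like abundance. Ephx1 (SD 0.19) and Nfe2l2 (SD 0.20) were tight, above only 19.6% and 35.9%, and the other 5 genes lay between 75.2% and 91.3%.

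The gene whose pattern over the 19 mice was most like that of Alas1 was Per1, a repressor of the circadian clock, by Pearson's r of log2 CPM (r = 0.85; r = 0.87 for deviations from the group means). Per1 was at 5.98, 4.98, 7.07, 8.21 and 11.03 TPM in Gramd1c-/- and 7.90, 14.7, 2.66, 13.1 and 8.71 TPM in Gramd1c+/+ mice on high cholesterol. On low cholesterol it was at 9.87, 9.86, 6.28 and 4.93 TPM in Gramd1c-/- and 1.57, 4.62, 14.6, 9.59 and 15.8 TPM in Gramd1c+/+ mice. In 3 of the 4 groups the mouse with the lowest Alas1 was also the lowest in Per1. The exception was the group of Gramd1c-/- mice on high cholesterol (replicate 4, with 63.6 TPM of Alas1 and 8.21 TPM of Per1). Without the 2 mice with the most extreme Per1, replicate 3 on high and replicate 1 on low cholesterol among Gramd1c+/+ mice, r was 0.72 over 17 mice. Coq10b, for a coenzyme Q binding protein, came next (r = 0.77). Per1 differed between genotypes over both diets by -0.32 (SE 0.34) and between diets by -0.03 (SE 0.34), neither called. The hour of each necropsy is not given for single mice, and its part in this relation was not tested.

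The efflux pumps Abcb1a and Abcc3 varied together from mouse to mouse. Abcb1a, the P-glycoprotein that exports lipophilic drugs into bile, lies at chr5:8660077-8748575 on the plus strand (ENSMUSG00000040584), and Abcc3, which returns conjugates to the blood, at chr11:94343295-94392997 on the minus strand (ENSMUSG00000020865). Abcb1a was at 2.47, 2.503, 7.84, 2.56 and 0.817 TPM in Gramd1c-/- and 1.83, 2.17, 1.61, 5.17 and 3.98 TPM in Gramd1c+/+ mice on high cholesterol. On low cholesterol it was at 2.92, 2.56, 2.78 and 2.53 TPM in Gramd1c-/- and 2.90, 2.07, 3.07, 1.56 and 4.14 TPM in Gramd1c+/+ mice. Abcc3 was at 97.4, 101, 201, 144 and 62.4 TPM in Gramd1c-/- and 101, 125, 79.3, 204 and 164 TPM in Gramd1c+/+ mice on high cholesterol, and at 127 to 153 TPM in Gramd1c-/- and 88.3 to 165 TPM in Gramd1c+/+ mice on low cholesterol. The highest and lowest mice for Abcb1a, replicates 3 and 5 of Gramd1c-/- mice on high cholesterol, were also the highest and lowest of that group for Abcc3. Deviations from the group means gave r = 0.82 (rho 0.76) over 19 mice and 0.68 over 17 without those replicates.

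**Figure D3:**
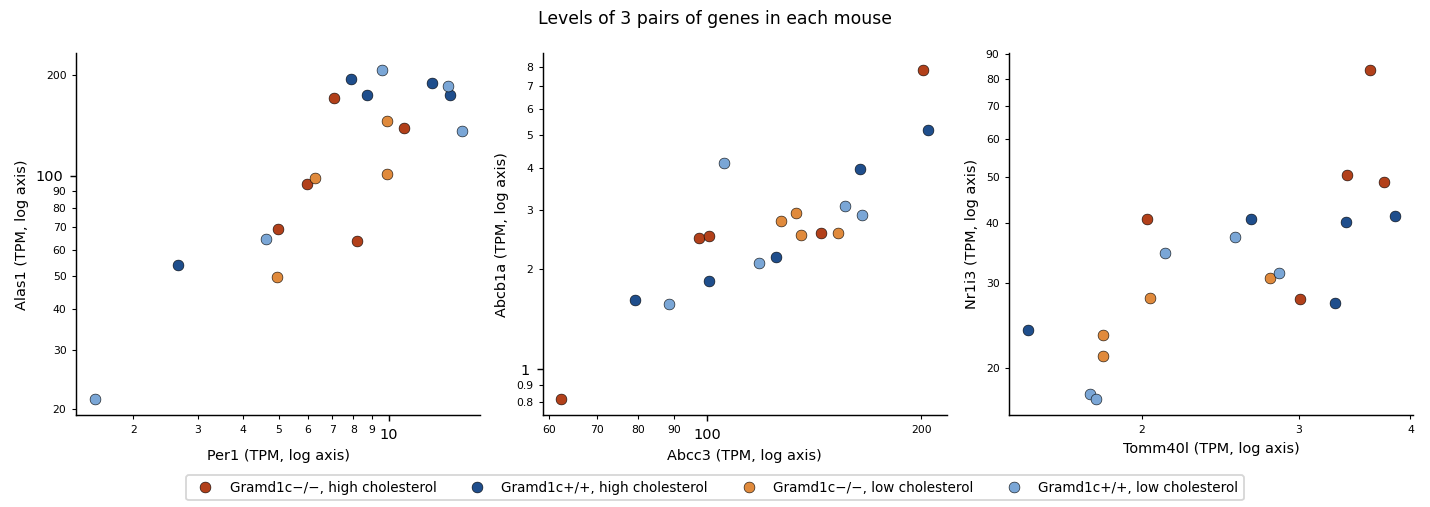
Levels of 3 pairs of genes in each mouse (points, coloured by genotype and diet), in TPM on log axes: Alas1 against Per1, Abcb1a against Abcc3 and Nr1i3 against its antisense neighbour Tomm40l. Within-group deviations gave r = 0.87, 0.82 and 0.54 over 19 mice, and mice of all groups lie along each trend.

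Neither pump differed between groups beyond the spread between mice. The genotype difference in Abcb1a had a 95% interval of -0.75 to 0.84 on high and -0.89 to 0.80 on low cholesterol, and the direction changed when single mice were left out. In replicate 3 of Gramd1c-/- mice on high cholesterol, where Abcb1a was 7.84 TPM, Ctrb1 was at 58.9 TPM, while the acinar markers Cpb1, Prss2, Pnlip and Amy2b were at or near 0. Of the 5 duct markers, Krt19 (119.7 TPM, against 0.560 to 3.06 TPM in the other mice), Epcam and Krt7 lay above every other mouse, and Sox9 and Spp1 lay within the range of the others. The part of these transcripts' source in the Abcb1a level was not tested, and without this mouse the genotype difference on high cholesterol was -0.46. Abcc3 had a 95% interval of -0.71 to 0.25 between genotypes on high cholesterol and -0.76 to 0.26 between diets in Gramd1c-/- mice. Abcb1b, the close paralog of Abcb1a and the pump of the mouse adrenal, was at 4.08 TPM in replicate 2 of Gramd1c+/+ mice on low cholesterol, the mouse with 570.3 TPM of adrenal markers, and at 0.214 to 0.529 TPM in the other 18. Its genotype difference on low cholesterol was -1.47 (SE 0.64, adjusted p = 0.999 with edgeR) with that mouse and 0.22 (SE 0.27) without it. Abcb1a was at 2.07 TPM in that mouse, within its group's range, and how reads shared by the paralogs were assigned is not given in the sources used here.

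Over all pairs of the 10 genes, correlation within groups was mostly weak. Of 45 pairs, 4 had r above 0.5 and 2 below -0.5, and the median r was 0.11 over 19 mice that share the scaling of each library. Nr1i2 was positively related to Por (r = 0.59, and 0.72 without the 2 mice with the most extreme Nr1i2), while Nr1i3 was negatively related to Por (r = -0.53) and to Abcc3 (r = -0.57). Without replicates 4 and 5 of Gramd1c-/- mice on high cholesterol r was -0.42 for Por and -0.39 for Abcc3. Nr1i3 and Nfe2l2 varied together (r = 0.65), but r was 0.37 without those mice. Nqo1 and Abcb1a (r = 0.50) had r = 0.13 without the 2 mice with the most extreme Nqo1. Nfe2l2 and its target Nqo1 had r = -0.47 (-0.34 without the 2 mice with the most extreme Nfe2l2), and Ahr and Nqo1 had r = -0.04. Along the leading principal component Nr1i3 had r = 0.82, Abcc3 r = -0.73 and Abcb1a r = -0.58, so pairs among these share that axis.

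**Figure D4:**
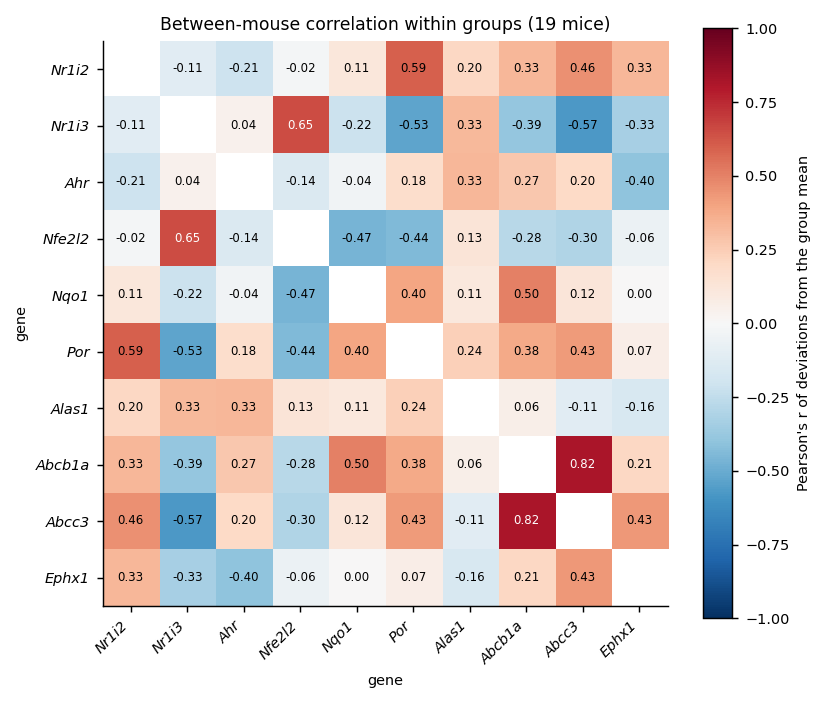
Pearson's r between the genes (rows and columns) over 19 mice, computed on deviations of log2 CPM from the group means, from -1 (blue) to 1 (red). Abcb1a with Abcc3 has the highest value (0.82) and Nr1i3 with Abcc3 the lowest (-0.57).

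By the same measure as for Alas1, the genes most like the other members were often of unrelated function. Nr1i3 followed Mrgbp (r = 0.94), a subunit of a histone acetyltransferase complex, and Abcc3 followed Flii (r = 0.94), an actin-binding protein. Nfe2l2 followed the unannotated transcript B930025P03Rik (r = 0.92) and Nqo1 followed Echdc3 (r = 0.91). Abcb1a and Por were most like Mfn2 (r = 0.87) and Rhbdd2 (r = 0.88), Nr1i2 like Cdip1 (r = 0.86) and Ahr like Adgrl2 (r = 0.81). Ephx1 was most like Gsta2 (r = 0.82), a glutathione transferase, and Cyp3a11 (r = 0.82), the main drug-oxidising P450 of mouse liver and a classical PXR target. For deviations from the group means, r with Ephx1 was 0.75 for Gsta2 and 0.65 for Cyp3a11.

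Of 7 lists of related genes, the list of NRF2 targets held 2 of 18 genes that were called with edgeR in the fit of all mice, where 1.3% of all genes were, and the other 6 lists held none. Both genes were lower on high cholesterol. Pgd, an NADPH-producing enzyme of the pentose phosphate pathway, was at 10.9 ± 2.71 TPM in Gramd1c-/- (SD, n = 5) and 10.96 ± 1.35 TPM in Gramd1c+/+ mice (n = 5) on high cholesterol, against 16.6 ± 2.22 TPM in Gramd1c-/- (n = 4) and 17.4 ± 3.07 TPM in Gramd1c+/+ mice (n = 5) on low cholesterol. It fell by 0.64 on the log2 scale over both genotypes (SE 0.10, adjusted p = 0.00139 with edgeR), and was called under all 29 alternatives. Me1, the malic enzyme that also makes NADPH, was at 94.5 ± 29.2 TPM in Gramd1c-/- and 91.7 ± 28.8 TPM in Gramd1c+/+ mice on high cholesterol, against 154 ± 25.03 TPM in Gramd1c-/- and 139.9 ± 17.0 TPM in Gramd1c+/+ mice on low cholesterol. It fell by 0.67 (SE 0.14, adjusted p = 0.0133 with edgeR), and was called under 28 of 29 alternatives. Both are also known as suppliers of NADPH for fatty acid synthesis. The other 16 of 18 NRF2 targets were not called. Of the 18, 8 had a positive and 10 a negative estimate for diet over both genotypes, with a median of -0.01, where the median over all genes was 0.02.

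The 14 CAR and PXR targets held no called gene in any comparison. Between genotypes on high cholesterol 13 of the 14 had a negative estimate, with a median of -0.36 beside 0.01 over all genes, and on low cholesterol 10 of 14, with a median of -0.11. Cyp3a11 was at 1660 ± 469 TPM in Gramd1c-/- and 2169 ± 504 TPM in Gramd1c+/+ mice on high cholesterol, and its diet difference in Gramd1c+/+ mice was 0.67 (SE 0.20, adjusted p = 0.261 with edgeR). Akr1b7, an aldo-keto reductase of adrenal and liver, had a genotype difference of -3.50 (SE 1.03) on low cholesterol that was -0.79 without replicate 2 of Gramd1c+/+ mice, which had 47.0 TPM of it and the adrenal markers. All 5 AHR targets had a negative estimate for genotype over both diets, with a median of -0.22, and none was called. The smallest p-values were those of Cyp1b1 (-0.37, SE 0.13, unadjusted p = 0.0110) and Cyp1a1 (-0.43, SE 0.21, unadjusted p = 0.0495), both with an adjusted p of 0.999 with edgeR. On high cholesterol alone, 1 of the 5 AHR targets had a positive estimate for genotype. Counts were low for Aldh3a1 (0 to 19 per mouse) and Cyp1a1 (15 to 72 per mouse).

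**Figure D5:**
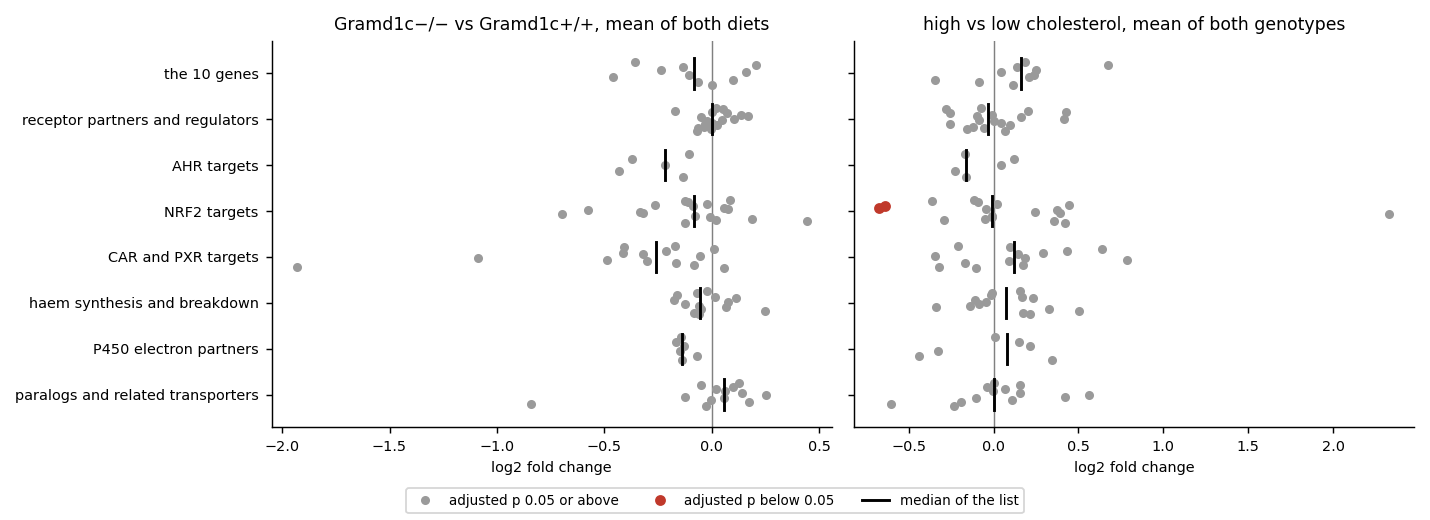
Log2 fold change (x axis) of every tested gene of the 10 described and of 7 related lists (rows), for Gramd1c-/- against Gramd1c+/+ over the mean of both diets (left) and high against low cholesterol over the mean of both genotypes (right). Red points were called (Pgd and Me1), grey points were not, and black bars are the list medians, -0.08 and 0.16 for the 10 genes.

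The remaining lists held partners and downstream enzymes, and none of their genes was called with edgeR in the fit of all mice. Mafg was called under 2 and Cyb5b under 4 of 29 alternatives. Among 18 tested receptor partners and regulators, Mafg, a small MAF partner of NRF2, had the smallest p for diet over both genotypes (0.42, SE 0.12, adjusted p = 0.0987 with edgeR), and Rxra, the partner of PXR and CAR, followed (-0.28, SE 0.13). Among 14 genes of haem synthesis and breakdown, Alas2, the erythroid counterpart of Alas1, had a diet difference of 0.95 (SE 0.28, adjusted p = 0.254 with edgeR) in Gramd1c+/+ mice, and Cpox one of -0.34 (SE 0.13) over both genotypes. Among 6 electron partners of P450 enzymes, Cyb5b, the outer mitochondrial cytochrome b5, had a diet difference of -0.44 (SE 0.13, adjusted p = 0.0953 with edgeR) and its reductase Cyb5r3 one of -0.33 (SE 0.12). All 6 had a negative estimate for genotype over both diets, the same sign as Por, with a median of -0.14, where that of all genes was 0.01. None of the 6 had an unadjusted p below 0.05 with edgeR in that comparison. Among 13 paralogs and related transporters, Abcc5 had a diet difference of 0.56 (SE 0.18) over both genotypes and Abcc4 one of 0.65 (SE 0.23) in Gramd1c-/- mice.

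For the 10 genes themselves, the median log2 fold change was -0.08 between genotypes over both diets, where that of all genes was 0.01, and 0.16 between diets over both genotypes, where that of all genes was 0.02. Between diets 8 of 10 estimates were positive and 2, those of Ahr and Abcc3, were negative. In all, 37 of the 70 estimates lay within 1 standard error of 0, from -0.33 to 0.35.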

How the data were processed

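Liver poly(A) RNA of 19 mice was sequenced, 1 library per mouse. For each mouse the authors deposited a table of raw read counts by Ensembl gene that also holds gene positions and lengths. The values are whole numbers and not normalized. STAR 2.5.2b and GRCm38 are named in the submitters' processing notes. For the counting step, neither tool, strand setting nor annotation release is given in the sources used here. The kit named in the labels does not mark strand.

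TPM was computed here from counts and lengths. Of 49315 genes, 48970 had a symbol. Tests used edgeR 4.0.16 under R 4.3.3 (TMM, filterByExpr with minimum count 10, 1 coefficient per group, all 19 mice, quasi-likelihood F test, Benjamini-Hochberg adjustment over 15016 genes). The procedure was checked on simulated counts with changes larger than any estimate of the 10 genes in the main fit, so the check does not cover differences of their size. Log2 CPM used a prior count of 2. Members and lists were chosen with earlier results of these data known. Named genes were the 10 members, Gramd1c, each list's called genes (or the 2 with the smallest p), and for each member the most alike genes by Pearson's r. Tomm40l, Abcb1b and Krt19 were chosen after their values were seen. Alternatives were RLE, TMM without Mup and mitochondrial genes, DESeq2 1.42.0, no filter, a filter of mean CPM 1, a fit of the compared groups alone, a block for replicate number, limma 3.58.1 on log2(TPM + 1), voom with sample weights, Abcb1a and Abcb1b summed, each mouse left out, and 2 pairs of libraries left out, of which 1 was chosen after seeing the data. Residuals of mice that shared a number had a mean correlation of -0.069 (27 pairs), against 0.017 for the others (108 pairs). These means show no likeness by number, but they cannot tell whether mice were paired by litter or handling. The labels give mice as separate animals. Figures used Python 3.11.15, numpy 2.4.6, pandas 2.3.3 and matplotlib 3.10.9.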

Additional observations from a re-analysis of the deposited data

Results flagged for a closer look

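Of 40 sets of values, 10 genes in 4 groups, 3 held a mouse far from the rest of its group by Dixon's ratio, and chance alone gives about 1 in 20. Nqo1 was at 27.0 TPM in replicate 5 of Gramd1c+/+ mice on low cholesterol, where the next mouse had 13.7 TPM. Alas1 was at 54.1 TPM in replicate 3 of Gramd1c+/+ mice on high cholesterol, where the next lowest had 174 TPM. Abcb1a was at 7.84 TPM in replicate 3 of Gramd1c-/- mice on high cholesterol, where the next had 2.56 TPM.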

How the results depend on the processing

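Of the 70 estimates, the 33 larger than their standard error kept their sign in all 975 alternative values. These values came from 31 settings that mostly share the same mice, so they are not separate tests. Of these values, 2 newly called a gene, Nr1i3 between diets over both genotypes. The settings were DESeq2 (0.67) and edgeR without replicate 4 of Gramd1c-/- mice on high cholesterol (0.76). In each, 1 of the 10 genes was called, against 0. Of the 37 within 1 standard error of 0, 26 changed sign under some setting. Over all genes, 195 were called between diets over both genotypes, 598 with DESeq2, 122 with the replicate block and 119 to 308 with single mice left out, the highest without replicate 5 of Gramd1c+/+ mice on low cholesterol. In Gramd1c-/- mice 49 were called and 94 with DESeq2, and in Gramd1c+/+ mice 66, 111 with DESeq2 and 41 to 87 with single mice left out (41 without replicate 2 on high and 42 without replicate 2 on low cholesterol). Why these counts moved was not tested. The replicate block changed no call among the 10 genes. Me1 lost its call with the block (adjusted p = 0.0502).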
